A study of Mus musculus with 6 samples.

Results

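The centrosome and its 2 centrioles are described here gene by gene in N2A cells, a mouse neuroblastoma line, after knockdown of the long noncoding RNA *Paupar*. The members are the measured genes whose symbol is Cep followed by a number, with 18 further genes of the centriole, the pericentriolar material and the gamma-tubulin ring complex added by name (*Plk4*, *Sass6*, *Stil*, *Cenpj*, *Nedd1*, *Pcnt*, *Cdk5rap2*, *Pcm1*, *Cetn2*, *Cetn3*, *Nin*, *Ninl*, *Cntrob* and *Tubgcp2* to *Tubgcp6*). The choice by symbol gave 55 members among 19938 named genes, 37 of them Cep-named.

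Cultures received 1.5 µg of a hairpin vector by transient transfection in medium with serum. The methods give the harvest as a range of days of which 2.5 is the middle, with no exact day for these cultures. A figure legend of the study gives 3 days for cultures in which *Paupar* was measured by quantitative RT-PCR. Whether the array cultures were harvested on that day is not stated. Both groups were the same line carrying the same kind of U6-driven plasmid, and differed in the hairpin, which targeted *Paupar* in 3 cultures (knockdown) and no transcript in the other 3 (control). Total RNA of each whole culture, with no sort of transfected cells described, was hybridised to 1 Affymetrix Mouse Gene 1.0 ST array, whose log2 RMA values are used throughout. A transcript cluster is the set of probes that the array assigns to a gene or to a stretch of one.

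A cell in G1 holds a pair of centrioles surrounded by pericentriolar material, the protein matrix from which gamma-tubulin ring complexes nucleate microtubules. At the start of S phase the kinase Plk4, recruited by Cep152 and Cep192, triggers assembly of a cartwheel of Sass6 and Stil beside each centriole, on which a daughter centriole is built and then elongated by Cenpj and Cep120. The older centriole carries appendages that anchor microtubules and dock it to the membrane as the base of a cilium. In mitosis each centrosome gathers more pericentriolar material and organises a spindle pole. Transcripts of many of these proteins are known to rise as cells pass through S phase into mitosis.

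A few facts of the arrays bear on all values. Array medians over the named genes ran from 7.85 to 7.92, and no cluster named *Paupar*, so its own level was not analysed here. Of 9 measured markers of sympathetic neuroblastoma cells, mean levels ran from 9.03 to 13.1, and 2 of them, *Dbh* and *Th*, enzymes of catecholamine synthesis, fell by 1.09 and 0.68 on the log2 scale (limma, adjusted p = 0.000687 and 0.0105). Markers of glia (6 genes, 6.22 to 7.83), of fibroblasts and muscle (7 genes, 4.60 to 8.14) and of blood and endothelium (6 genes, 5.82 to 7.93) held no gene that passed the test. Only 1, 5 and 3 of them, in that order, varied enough to be tested. Across the 9969 genes tested, 752 passed at an adjusted p under 0.05, which was 7.54%. With 1 array left out, between 112 genes (without control replicate 3) and 1239 (without knockdown replicate 3) passed.

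Most centrosome genes were measured somewhat higher after *Paupar* knockdown, and few passed the test one by one. The log2 fold change, knockdown minus control, was above 0 for 46 of 55 members (83.6%), against 58.4% of all named genes. Its median was 0.15 over the members and 0.03 over all named genes. In 24 members every knockdown array lay above every control array (43.6% of members, with 12.8% of all named genes doing so), and in 2 members, *Cep350* and *Cep78*, every knockdown array lay below (3.64% of members and 10.8% of all named genes). These shares describe the list and are no test of it. The median of the mean levels was 9.27 over the members and 7.89 over all named genes, and the shares were not matched for level.

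Low-variation genes had been removed before the test, and 32 members passed that filter. Of these *Nedd1* and *Cep55* rose (2 members, 6.25% of the 32, with 2.39% of all genes tested), *Cep350* fell (1 member, with 5.16% of all genes tested) and 29 were not called (limma, Benjamini-Hochberg adjusted over 9969 genes, threshold 0.05). At an unadjusted p under 0.05 there were 15 members (46.9% of the 32), against 26.3% of all genes tested. The other 23 members were among the 50% of genes with the smallest interquartile range and are given by their values. Each value is from bulk RNA, in which a larger share of cells in one cell cycle phase and more RNA per cell cannot be told apart.

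**Figure D1:**
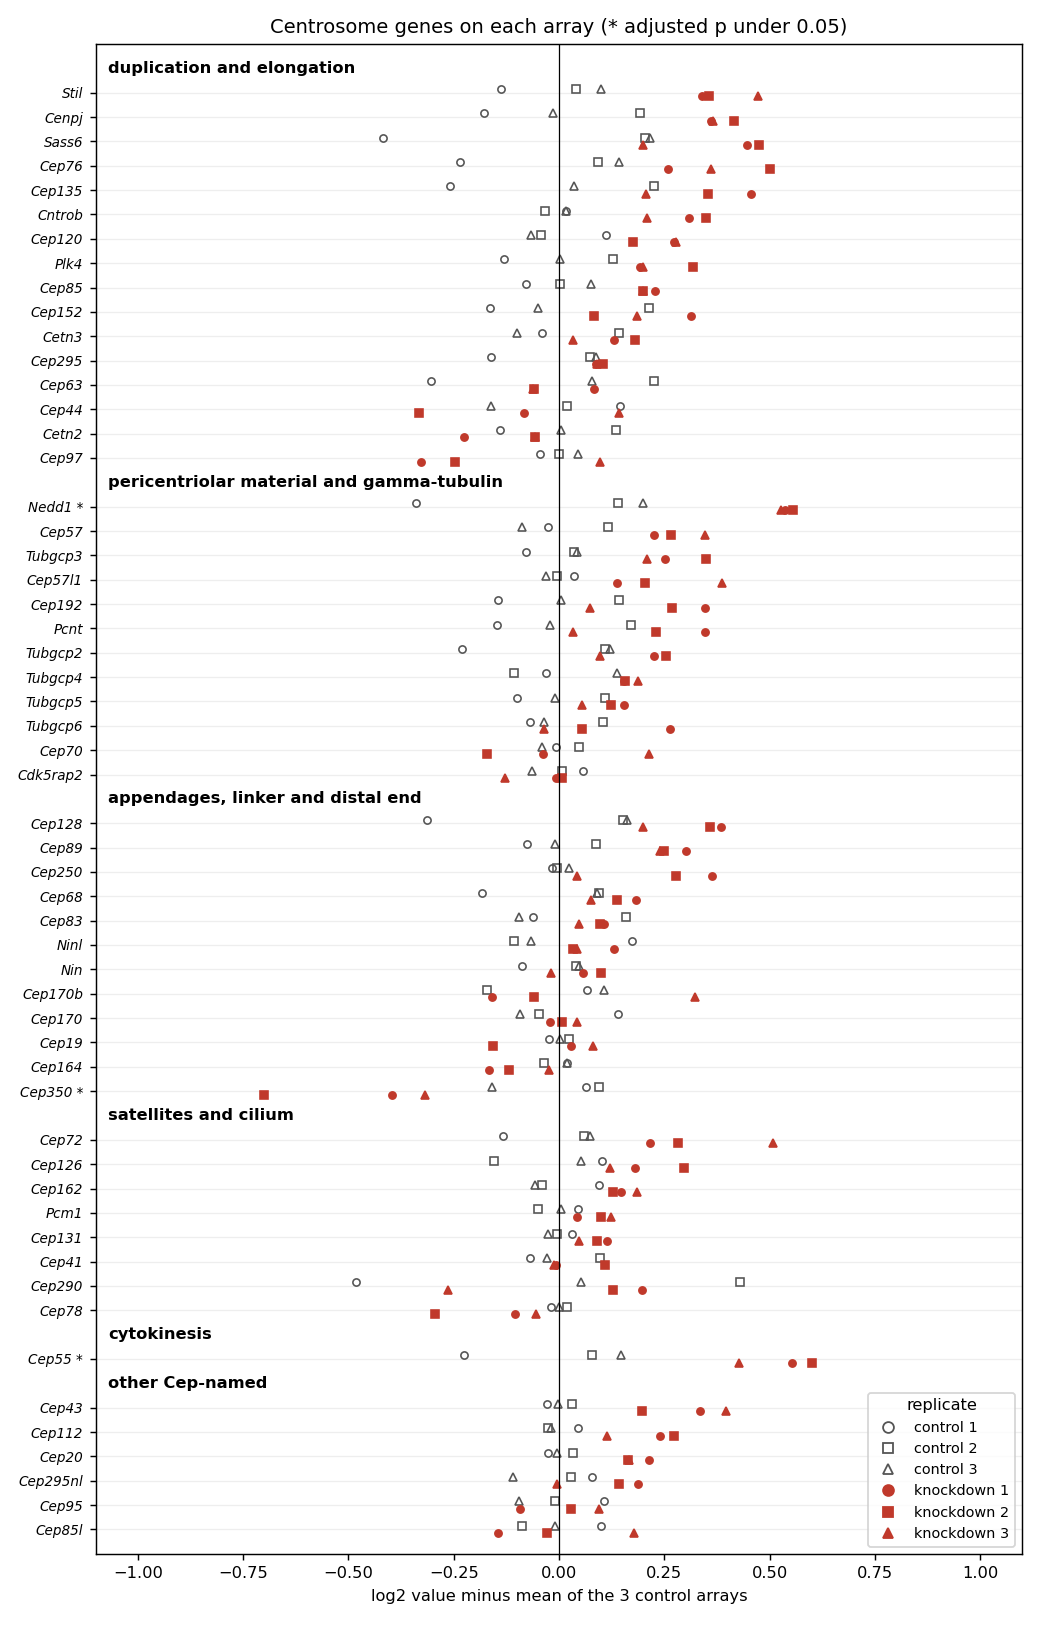
Each row is 1 of the 55 centrosome genes, grouped by role, and each point is 1 array, placed by its log2 value minus the gene's control mean (open, control; filled, knockdown; symbol shape, replicate; asterisk, called). Filled points lie to the right of the open ones without overlap for 24 genes and to the left for *Cep350* and *Cep78*, and control replicate 1 is the lowest of the 6 arrays for 28 genes.

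Sets of 3 values below are in the order of replicates 1, 2 and 3. *Nedd1*, whose product brings the gamma-tubulin ring complex to centrosomes and spindles, read 8.88, 9.36 and 9.42 on the control arrays and 9.75, 9.77 and 9.74 on the knockdown arrays. The knockdown values lay close together above all controls, and control replicate 1 was well below the other two. The mean rose from 9.22 ± 0.30 to 9.76 ± 0.014 (SD, n = 3 each), a log2 fold change of 0.54 (SE 0.14, limma, adjusted p = 0.0366) or 1.45-fold. Without control replicate 1 the log2 fold change was 0.37 and the adjusted p 0.0762, and of the fits that left out 1 array the call passed only without control replicate 2 (0.0263).

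*Cep55*, which encodes a midbody protein that recruits the membrane-cutting machinery at the end of cytokinesis, read 9.70, 10.00 and 10.07 in the controls and 10.48, 10.53 and 10.35 in the knockdown. All knockdown arrays again lay above all controls. The rise was 0.53 on the log2 scale (SE 0.13, adjusted p = 0.0278 in limma), from 9.92 ± 0.20 to 10.45 ± 0.090 (SD, n = 3 each), which is 1.44-fold. The call was lost without control replicate 1 or 3 and without knockdown replicate 1 or 2, with adjusted p up to 0.133, and passed without control replicate 2 or knockdown replicate 3.

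*Cep55* was the only called member with a promoter in the RefSeq table (assembly GRCm38.p6). Its sequence is shown with matches to short promoter motifs, of which the GC box is not particular to cell cycle genes. The first line is the window before the first annotated start, chr19:38054734-38054983 on the plus strand, with matches to the GC box (GGGCGG, here read as CCGCCC) in capitals. The second line, chr19:38054996-38055025 on the same strand, begins after that start and before the other annotated start. Its capitals mark a match to the cell cycle homology region, TTTGAA, on the opposite strand.

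Cep55 before the first start: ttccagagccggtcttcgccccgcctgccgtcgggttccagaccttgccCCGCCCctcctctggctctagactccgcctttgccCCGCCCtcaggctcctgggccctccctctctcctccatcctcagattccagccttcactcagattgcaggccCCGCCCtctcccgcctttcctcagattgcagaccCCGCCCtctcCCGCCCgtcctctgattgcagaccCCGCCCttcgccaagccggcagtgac
Cep55 around the second motif: acagccgcgggaTTCAAActcccggaagcg

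The window holds 6 matches to the GC box. Among 46 members with a promoter in the table, 34 (73.9%) held GGGCGG on either strand of the 300 bases around any annotated start, against 38.2% of 27025 genes. Those 27025 genes were not limited to the ones measured here, and the number of starts per gene was not matched. CCAAT was present in 21 (45.7%, with 41.1% of all genes), TTTGAA or TTCGAA in 13 (28.3%, with 21.7%) and an E2F motif (TTTCCCGC, TTTGGCGC, TTTCGCGC or TTTGCCGC) in 3 (6.52%, with 2.60%). These matches describe letters in the windows and were not set against the fold changes. *Nedd1* and *Cep350* had no entry.

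*Cep350*, which encodes a large protein that anchors microtubules at the centrosome together with its partner Cep43, read 9.75, 9.78 and 9.53 in the controls and 9.29, 8.99 and 9.37 in the knockdown. Here every knockdown array lay below every control. The mean fell from 9.69 ± 0.14 to 9.21 ± 0.20 (SD, n = 3 each), a log2 fold change of -0.47 (SE 0.13, adjusted p = 0.0463 in limma) or 1.39-fold lower. The array carries 6 transcript clusters of *Cep350*, and the cluster with the highest mean level stood for the gene. All 6 gave lower values in the knockdown with no overlap between the groups, and their log2 fold changes ran from -0.51 to -0.35. With 1 array left out the *Cep350* call passed only without knockdown replicate 3 (adjusted p = 0.0288), and the adjusted p reached 0.246 without knockdown replicate 2. With all arrays kept, the call was lost without the low-variation filter (0.0655), after median centring (0.0599) and after a second quantile normalisation (0.0526). It was also lost with replicate number as a block (0.0547) and with every cluster entered separately (0.211).

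**Figure D2:**
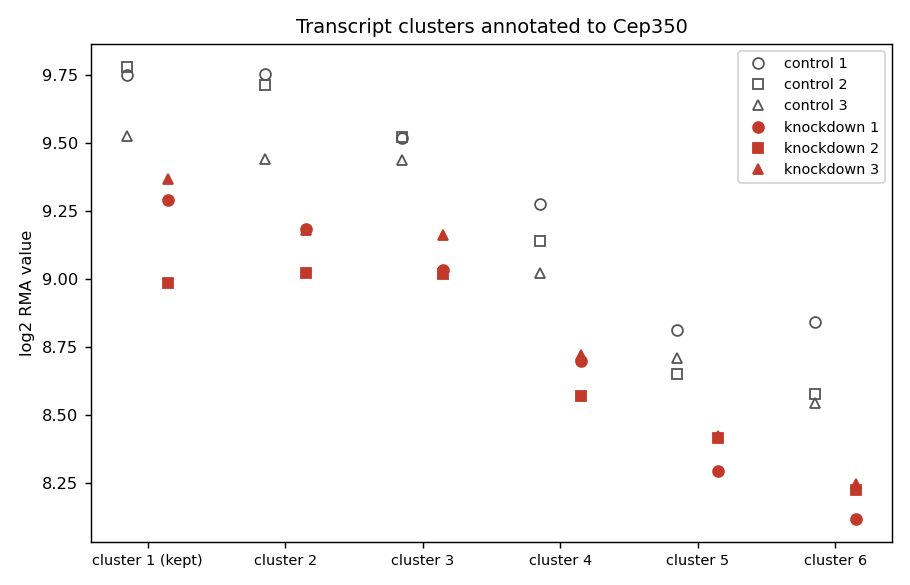
Log2 values of the 6 transcript clusters of *Cep350* on each array, open points for the 3 control arrays and filled points for the 3 knockdown arrays. In every cluster the knockdown points lie below the control points, by 0.35 to 0.51 between the means.

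The duplication and elongation genes, 16 members, had a median log2 fold change of 0.22, with 12 above 0 and 8 in which every knockdown array lay above every control (58.4% and 12.8% of all named genes). None was called among the 13 tested (7.54% of all genes tested), and 6 had an unadjusted p under 0.05 (26.3% of all genes tested). *Plk4*, the kinase that starts duplication, read 10.82, 11.08 and 10.95 in the controls and 11.14, 11.27 and 11.15 in the knockdown. The groups did not overlap, and the log2 fold change was 0.24 (SE 0.12, limma, adjusted p = 0.222).

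*Stil*, the Plk4 substrate that brings Sass6 to the cartwheel, read 9.51, 9.69 and 9.74 in the controls and 9.99, 10.00 and 10.12 in the knockdown. It lay higher in every knockdown culture by a mean log2 fold change of 0.39 (SE 0.12, limma, adjusted p = 0.0604). *Sass6*, which forms the cartwheel's spokes, read 9.03, 9.65 and 9.67 and 9.90, 9.93 and 9.65 in the same order. Knockdown replicate 3 lay just under control replicates 2 and 3, so the groups overlapped, and the log2 fold change of 0.37 had an SE of 0.16 (limma, adjusted p = 0.165).

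*Cenpj*, which adds tubulin to the growing centriole wall, gave 8.43, 8.80 and 8.59 on control arrays against 8.97, 9.02 and 8.97 on knockdown arrays. Its groups did not overlap, and the log2 fold change was 0.38 (SE 0.13, limma, adjusted p = 0.0767). *Cep135*, which joins the cartwheel to the microtubule wall, gave 7.23, 7.72 and 7.53 against 7.95, 7.85 and 7.70. Control replicate 2 was above knockdown replicate 3, and the log2 fold change was 0.34 (SE 0.14, limma, adjusted p = 0.144).

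The scaffolds that place Plk4 on the parent centriole had smaller differences, none of them called. *Cep152* measured 7.52, 7.90 and 7.64 in controls and 8.0, 7.77 and 7.87 in knockdown cultures, overlapping groups with a log2 fold change of 0.19 (SE 0.13, limma, adjusted p = 0.352). *Cep192*, counted with the pericentriolar genes since it also builds that material in mitosis, measured 9.89, 10.18 and 10.04 and 10.38, 10.30 and 10.11. Control replicate 2 exceeded knockdown replicate 3, and the log2 fold change was 0.23 (SE 0.13, limma, adjusted p = 0.256); its 2 other clusters gave 0.31 and 0.27. *Cep63*, the partner of Cep152, measured 7.01, 7.53 and 7.39 and 7.39, 7.25 and 7.25, with both groups mixed. Its log2 fold change was -0.013 in this cluster and 0.15 in a second, dimmer one whose knockdown values all lay above the controls, so the clusters of *Cep63* disagreed in sign.

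**Figure D3:**
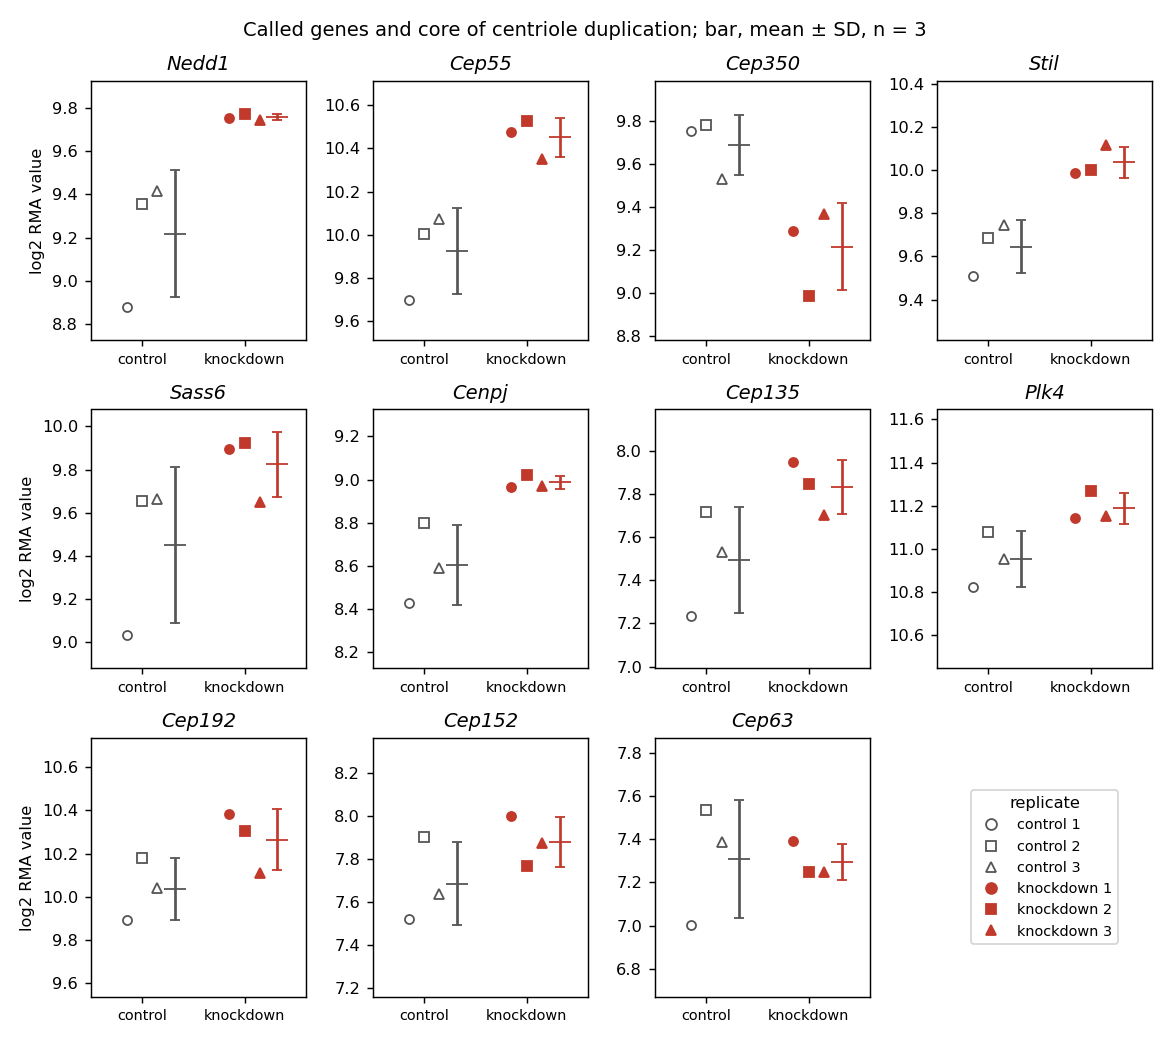
Log2 values on each array for the 8 core duplication genes and the 3 called members, with control and knockdown points side by side and bars at the mean ± SD (n = 3 each). The groups are apart for *Plk4*, *Stil*, *Cenpj*, *Nedd1*, *Cep55* and, downward, *Cep350*, and overlap for *Sass6*, *Cep152*, *Cep192*, *Cep63* and *Cep135*.

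Of the remaining duplication genes, *Cep76*, which restrains repeated duplication, differed most, with a log2 fold change of 0.37 (SE 0.13, limma, adjusted p = 0.0988) and no overlap. The daughter centriole protein gene *Cntrob* (0.29), the elongation factor gene *Cep120* (0.24), *Cep85*, whose product binds Stil (0.21), and *Cep295*, needed for a new centriole to become a centrosome (0.094), also had every knockdown array above the controls. Log2 fold changes of the centrin genes were 0.11 for *Cetn3* and -0.11 for *Cetn2*, both with overlap. *Cep97*, whose product caps the growing centriole with Ccp110, read lower on average (-0.16, limma, adjusted p = 0.451), as did *Cep44* (-0.091), and both overlapped. Besides *Stil*, *Cenpj* and *Cep76*, no uncalled member had an adjusted p under 0.1, and 9 lay between 0.1 and 0.2.

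**Figure D4:**
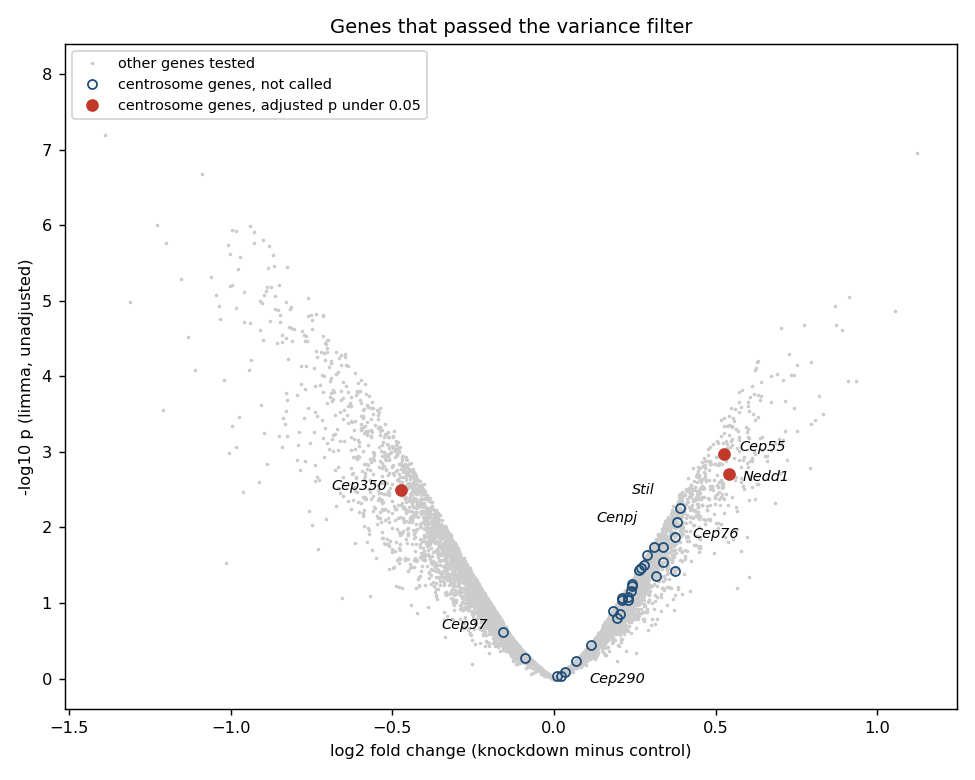
Log2 fold change (horizontal) against -log10 of the unadjusted limma p (vertical) for the 9969 genes tested, with the 32 centrosome genes that passed the variance filter as circles, filled where called. Of these, 29 lie to the right of 0 and 3 to the left, and *Nedd1*, *Cep55* and *Cep350* are the filled ones.

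Pericentriolar and gamma-tubulin genes, 12 members, had 11 log2 fold changes above 0 (58.4% of all named genes) and a median of 0.20. Among 6 tested, *Nedd1* was the 1 called, and 2.39% of all genes tested rose. *Cep57*, which organises pericentriolar material around the parent centriole, read 9.36, 9.51 and 9.30 in controls and 9.62, 9.66 and 9.74 in knockdown cultures, apart from each other by a mean of 0.28 (SE 0.12, limma, adjusted p = 0.152). Its paralogue *Cep57l1* read 9.46, 9.43 and 9.40 and 9.57, 9.63 and 9.81, also without overlap, for a log2 fold change of 0.24 (SE 0.12, limma, adjusted p = 0.207). *Tubgcp3*, a core subunit of the gamma-tubulin ring complex, read 11.01, 11.12 and 11.13 and 11.34, 11.44 and 11.30. Its groups were apart too, with a log2 fold change of 0.27 (SE 0.12, limma, adjusted p = 0.157).

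The other ring complex genes lay between 0.094 for *Tubgcp6* and 0.19 for *Tubgcp2* in log2 fold change, and did not pass the variance filter. *Tubgcp4* (0.17) was the one of these 4 without overlap. The scaffold gene *Pcnt* gave 0.20 with overlap (SE 0.13, limma, adjusted p = 0.324). *Cdk5rap2*, the other large scaffold, gave -0.043 and *Cep70* 0.0017, both with overlap.

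The genes of the appendages, linker and distal end, 12 members, had a median of 0.06, with 9 above 0 (58.4% of all named genes). Apart from *Cep350* none of the 6 tested was called (7.54% of all genes tested). At an unadjusted p under 0.05 there were 3 of them, *Cep350* included (26.3% of all genes tested). *Cep128*, of the subdistal appendages, measured 7.59, 8.05 and 8.06 in controls and 8.29, 8.26 and 8.10 in the knockdown, with no overlap and a log2 fold change of 0.31 (SE 0.14, limma, adjusted p = 0.178). *Cep89*, of the distal appendages, measured 8.32, 8.49 and 8.39 and 8.70, 8.65 and 8.64, again apart, for 0.26 (SE 0.11, limma, adjusted p = 0.163). *Cep250*, for the linker protein that holds the parent centrioles together, measured 7.71, 7.72 and 7.75 and 8.09, 8.01 and 7.77. Its groups were apart by a mean of 0.23 (SE 0.12, limma, adjusted p = 0.245).

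The remaining 8 of these genes overlapped between groups in the cluster that stood for the gene. *Cep164*, which docks the mother centriole to the membrane, gave a log2 fold change of -0.10 in that cluster. Its second, dimmer cluster gave -0.17, and there every knockdown value lay below every control. *Cep68* of the linker (0.13), *Cep83* of the distal appendages (0.083), *Nin* (0.046), which anchors microtubules at the subdistal appendages, and its paralogue *Ninl* (0.069) were slightly above 0. *Cep170b* (0.035), *Cep170* (0.0092) and *Cep19* (-0.016) were nearest 0.

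Satellite and cilium genes, 8 members, had a median of 0.09, and 7 were above 0 (58.4% of all named genes). Neither of the 2 that were tested was called (limma, with 7.54% of all genes tested called). Of the 2, 1 had an unadjusted p under 0.05 (26.3% of all genes tested). *Cep72*, a satellite protein that interacts with Pcm1, read 7.64, 7.84 and 7.85 on control arrays and 7.99, 8.06 and 8.28 on knockdown arrays, apart by 0.34 (SE 0.13, limma, adjusted p = 0.115). *Cep126*, for a microtubule-binding centrosomal protein, read 5.19, 4.94 and 5.15 and 5.27, 5.39 and 5.21, with a mean difference of 0.20 (SE 0.10 in the fit to all named genes). Its mean level was at the 9.1 percentile of named genes and below those of all the glia, blood and endothelium markers above, and whether it stands above background was not tested. *Cep162*, an axoneme-binding protein that helps to assemble the transition zone of the cilium, read 9.42, 9.28 and 9.27 and 9.47, 9.45 and 9.51, apart by 0.15 (SE 0.081 in the same fit).

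*Cep78* was the other member with every knockdown array below the controls: it measured 10.65, 10.69 and 10.67 and 10.57, 10.38 and 10.62, a difference of -0.15 (SE 0.088, fit to all named genes) that did not pass the variance filter. *Cep290*, of the transition zone, spread widely within groups and had a log2 fold change of 0.021. *Pcm1*, the scaffold of the satellites, gave 0.088 with overlap, *Cep131* 0.083 without overlap, and *Cep41* 0.029 with overlap.

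The other Cep-named genes, 6 members, were all above 0 (58.4% of all named genes), with a median of 0.14. None of the 4 tested was called (limma, with 7.54% of all genes tested called), and 1 had an unadjusted p under 0.05 (26.3% of all genes tested). *Cep43*, the partner of *Cep350* in the same complex, gave 8.68, 8.74 and 8.71 in controls and 9.04, 8.90 and 9.10 in the knockdown. Its arrays were apart in the upward direction, by 0.31 (SE 0.12, limma, adjusted p = 0.116), so that the transcripts of the 2 partners were measured on opposite sides of 0. *Cep112* gave 6.69, 6.61 and 6.62 and 6.88, 6.91 and 6.75, apart by 0.21 (SE 0.12, limma, adjusted p = 0.254). *Cep20*, a relative of Cep43, gave 10.04, 10.10 and 10.06 and 10.28, 10.23 and 10.23, apart by 0.18 (SE 0.11, limma, adjusted p = 0.307). *Cep295nl* (0.11), *Cep95* (0.010) and *Cep85l* (0.0011) overlapped.

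Further centrosome genes outside the membership rule were taken as a second list. Of 48 measured, 33 had a log2 fold change above 0 with a median of 0.11, and 18 had every knockdown array above every control (58.4% and 12.8% of all named genes). Among 27 tested, 2 rose (7.41%, with 2.39% of all genes tested) and 0 fell, while 11 had an unadjusted p under 0.05 (26.3% of all genes tested). *Ccp110*, whose product caps the distal end of centrioles, rose by 0.50 (SE 0.13, limma, adjusted p = 0.0404), and its values of 9.50, 9.83 and 9.63 in controls and 10.30, 10.21 and 9.94 in the knockdown did not overlap. *Plk1*, the mitotic kinase that drives centrosome maturation, rose by 0.42 (SE 0.12, limma, adjusted p = 0.0478), from 11.49, 11.74 and 11.75 to 12.05, 12.15 and 12.05.

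Cell cycle genes were set beside the members. Of 19 S phase genes measured 18 were tested, and 10 rose (55.6%, with 2.39% of all genes tested) and 0 fell, with a median log2 fold change of 0.58 over the 19. The count was 5 without control replicate 1, 2 without control replicate 3 or knockdown replicate 2, 4 without knockdown replicate 1 or without the low-variation filter, and 0 with every cluster entered. *Rrm2*, a subunit of ribonucleotide reductase, rose by 1.05 and *Cdc6*, which licenses replication origins, by 0.87 (limma, adjusted p = 0.00298 and 0.00352). Of 17 G2 and M phase genes measured 14 were tested, and 5 rose (35.7%, with 2.39% of all genes tested) and 0 fell, with a median of 0.36 over the 17, among them *Kif11*, the spindle motor (0.50), and *Ccna2*, cyclin A2 (0.46, limma, adjusted p = 0.0286 and 0.0305). That count was 0 without control replicate 1 or 3 or knockdown replicate 1 or 2 and with every cluster entered, and 3 without knockdown replicate 3.

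Relative to the control mean, the mean over the 55 members was -0.07, 0.06 and 0.01 on control replicates 1 to 3 and 0.15, 0.14 and 0.14 on knockdown replicates 1 to 3. The S phase list gave -0.37, 0.23 and 0.14 in controls and 0.68, 0.65 and 0.40 in the knockdown. The G2 and M phase list gave -0.17, 0.08 and 0.09 against 0.31, 0.35 and 0.33. In all 3 sets the knockdown arrays lay above the control arrays and control replicate 1 was the lowest, and the part of cell cycle position in the members' values was not tested.

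**Figure D5:**
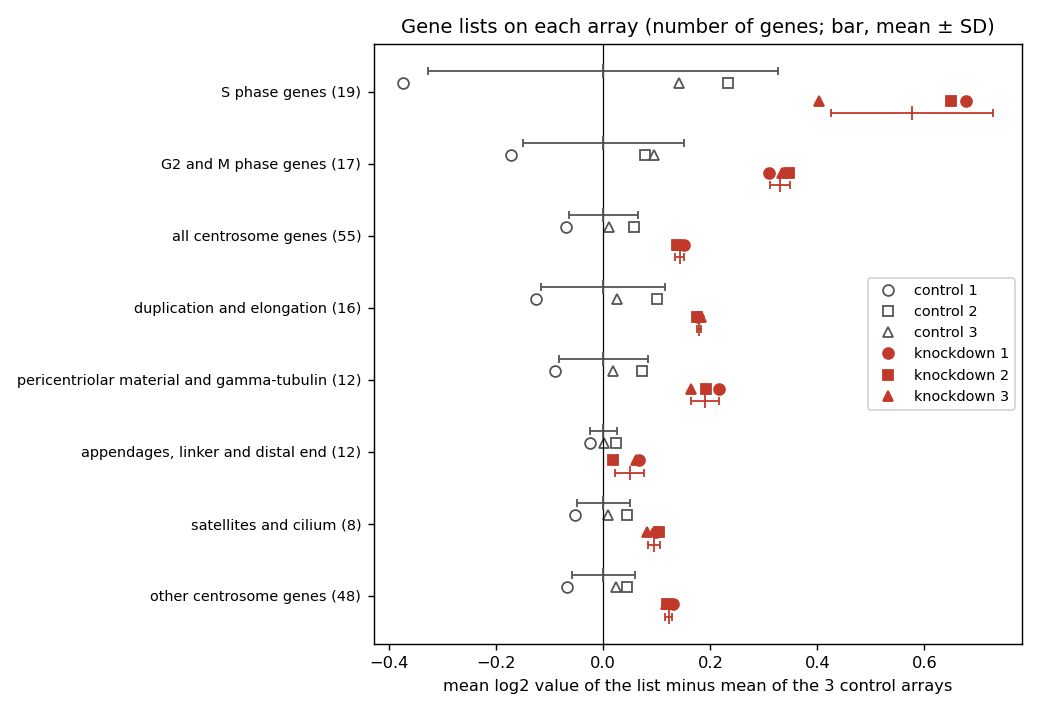
Mean log2 value of a gene list minus its mean over the control arrays (horizontal) on each array, for the S phase, G2 and M phase and centrosome lists (open, control; filled, knockdown; bars, mean ± SD of 3 arrays). The S phase list spans -0.37 to 0.68 and the 55 centrosome genes -0.07 to 0.15, and control replicate 1 is the lowest control in both.

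Control replicate 1 was the lowest of the 6 arrays for 28 of 55 members (50.9%), against 19.2% of all named genes. Without it, every knockdown array lay above both other controls in 27 members (49.1%, with 25% of all named genes), and 0 members were called in limma, with 12 of 31 at an unadjusted p under 0.05 (38.7%, with 30.5% of all genes tested in that fit). Leaving out 1 array at a time gave between 24 and 33 members with every knockdown array above (15.1% to 25% of all named genes), and between 2 and 4 with every one below (12.7% to 18.6%).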

How the data were processed

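Total RNA of 3 control and 3 *Paupar* knockdown N2A cultures was measured, 1 culture per array. The authors deposited log2 expression values: per the labels and methods, arrays were background corrected, quantile normalised and summarised by RMA (versions not given in the sources used here). Array number limits precision. The methods call the replicates biological; the labels give no batch.

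Of 35556 transcript clusters, 21789 had 1 gene symbol in the platform annotation, 1621 several (24 of them naming a member, not used) and 12146 none. The cluster with the highest mean stood for each gene. The members' 55 symbols all matched RefSeq (GRCm38.p6). The methods name limma and a variance cut-off of 0.5, read here as removal of the 50% of genes lowest in interquartile range over the 6 arrays, which left 9969 genes. The groups were compared in limma (version 3.58.1, run in R 4.3.3; lmFit, eBayes), and p-values were adjusted by Benjamini-Hochberg. Members below the filter took values from a fit to all 19938 genes. The steps were tested on simulated data.

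Members, lists and roles were chosen with earlier results of these data known. The members called, the core duplication genes and up to 3 uncalled members per role with the largest difference were given by array. Alternatives were other filters, scalings, cluster choices, weights, a replicate block and leaving out each array.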

Additional observations from a re-analysis of the deposited data

How the results depend on the processing

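The median log2 fold change of the members stayed between 0.13 and 0.18 under the alternatives run, and none of the 3 called members changed direction. The counts of members called did move. Members that rose, 2 as reported, numbered 1 without a filter, 0 of 26 tested with every cluster entered separately (where 0 genes passed in limma and 9 members had an unadjusted p under 0.05), 6 with a filter on signal, 24 with array weights (under which 5561 genes were called) and 4 after a second quantile normalisation. They ran from 0 to 3 when 1 array was left out. Members that fell, 1 as reported, numbered 0 without a filter, with all clusters, after median centring, after the second quantile normalisation and with the block, and 2 with array weights. Leaving out 1 array gave 0 to 1. With all arrays in the fit, *Nedd1* lost its call without a filter (adjusted p = 0.0642, limma) and both *Nedd1* and *Cep55* lost theirs with all clusters (0.201 and 0.186). Other centrosome genes that rose, 2 as reported, numbered 1 without a filter, 5 with variance in place of interquartile range, 0 with all clusters, 7 with the signal filter, 5 with a variance trend, 18 with weights (and 1 fell) and 4 after the second quantile normalisation, and 0 to 3 with 1 array left out. The cause of these shifts was not tested.

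Same-numbered samples deviated from their group means with correlations of -0.34, 0.096 and 0.080. The highest value, 0.44, was between control replicate 2 and knockdown replicate 1. Deviations within a group sum to 0, so these correlations cannot show whether same-numbered cultures were handled together. With the replicate block 680 genes were called instead of 752, with 2 members that rose and 0 that fell (*Cep350*, adjusted p = 0.0547 in limma), 1 other centrosome gene that rose, 11 S phase genes and 2 G2 and M phase genes.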

Other observations

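Genes of the deuterosome and of multiciliated cells, which make centrioles in bulk in differentiated epithelia by a route apart from the duplication cycle, were measured for 8 genes. Only 1, *Mcidas*, passed the variance filter, and it was not called (limma, adjusted p = 0.378). Their median log2 fold change was 0.054, with 6 above 0 (58.4% of all named genes) and 2 with every knockdown array above every control (12.8% of all named genes), and their mean levels lay between 5.21 and 9.45.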
